A study of Mus musculus with 4 samples.

Results

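Oxidative phosphorylation genes were taken as 95 of the 32285 genes in the count tables. A symbol rule chose them: nuclear genes named as subunits of complexes I to V (Nduf, Sdh, Uqcr, Cox4 to Cox8 followed by a letter a to c, and Atp5), leaving out names with -ps or ending in os, plus the 13 protein-coding genes of the mitochondrial genome. No measured value entered the rule. It gave 82 nuclear genes (37 of complex I, 4 of complex II, 8 of complex III, 16 of complex IV and 17 of complex V) and 13 mitochondrial genes (7 of complex I, 1 of complex III, 3 of complex IV and 2 of complex V). Cox4i1, Cox4i2, Ndufab1, Cyc1 and Cycs do not match the symbol patterns and are given beside the members only where stated. Complexes were assigned by symbol, so Ndufa4, whose protein is now placed in complex IV, is counted here with complex I.

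The mice were C57BL/6J males, wild type in both groups. One group (CTRL) was given the control diet, the other (HFD) the high-fat diet, each over 12 weeks, and the labels used here give no age. Their pituitary glands were dissociated into single cells and profiled with the 10x Genomics 3' v3.1 kit, which counts unique molecular identifiers (UMIs) at the 3' end of polyadenylated RNA. Each diet had 2 libraries, numbered 1 and 2 within the diet. How many glands a library pools is not stated in the labels, so the p-values reflect the spread of these 4 samples alone, and that spread may be technical. Unless stated otherwise, 4 values in a row are in the order CTRL 1, CTRL 2, HFD 1, HFD 2.

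Oxidative phosphorylation makes most of a cell's ATP from oxygen. Complexes I and II pass electrons from NADH and succinate to complex III, cytochrome c carries them to complex IV, and complex V uses the resulting proton gradient to make ATP. Complex II is encoded in the nucleus alone, whereas complexes I, III, IV and V combine subunits of the nuclear and the mitochondrial genome, and several nuclear subunits of complex IV exist in general and tissue-restricted forms. Secretory endocrine cells such as those of the anterior pituitary spend ATP on hormone synthesis, granule transport and ion pumping.

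The 4 libraries held 23915 cells after filtering (4342, 6813, 5853 and 6907), with 64180394 to 91816226 UMIs per library and 10100 to 17984 median UMIs per cell. HFD 1 stood apart before filtering. It shared 3116 cell barcodes with HFD 2 and 1423 with CTRL 2, whereas other pairs of libraries shared 14 to 22. In 3110 of the 3116 barcodes the lower count was in HFD 1, at a median of 5.58% of the UMIs in HFD 2, so each shared barcode was kept only in the library where it had most UMIs. This removed 23.1% of the barcodes of HFD 1 with at least 500 genes. With all shared barcodes kept, 3 pairs of member and class passed the diet test described below, and 2 without them. Of the 3, 2 were in gonadotrope-like cells, where 1.77% of all genes passed, beside 1.44% without those barcodes. Cells were grouped by clustering in which the 95 members took no part, and a class is called "-like" because its name rests on marker genes fixed for this work. In all, 10 classes had at least 30 cells in each library and were tested, and 3 rarer ones (pericyte-like, pituicyte-like, and T or NK cell-like, 120 to 180 cells each) are described without a test.

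Restricted and general forms of complex IV subunits contrast between the classes below, and the start regions of 3 such pairs are shown here to let their letters be compared. Each stretch is 120 bases of the mouse genome, 5′ to 3′ on the gene's strand (RefSeq sequence, GRCm38.p6). It lies before the RefSeq start or the edge of the GENCODE gene, whichever is more upstream. The stretches of Cox6b1, Cox7a2 and Cox7a1 therefore end short of the RefSeq start, and those of Cox6b2, Cox8a and Cox8b end at it. Capitals mark CpG dinucleotides.
Cox6b1: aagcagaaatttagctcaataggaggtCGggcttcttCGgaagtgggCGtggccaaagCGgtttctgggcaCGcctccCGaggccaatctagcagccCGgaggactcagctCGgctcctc
Cox6b2: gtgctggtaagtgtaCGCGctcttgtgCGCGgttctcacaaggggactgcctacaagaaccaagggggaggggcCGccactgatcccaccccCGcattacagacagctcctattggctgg
Cox7a2: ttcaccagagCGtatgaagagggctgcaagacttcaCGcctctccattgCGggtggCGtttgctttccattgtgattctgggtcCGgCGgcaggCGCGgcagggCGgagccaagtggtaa
Cox7a1: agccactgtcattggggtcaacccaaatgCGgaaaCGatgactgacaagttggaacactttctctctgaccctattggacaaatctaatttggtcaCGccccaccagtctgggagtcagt
Cox8a: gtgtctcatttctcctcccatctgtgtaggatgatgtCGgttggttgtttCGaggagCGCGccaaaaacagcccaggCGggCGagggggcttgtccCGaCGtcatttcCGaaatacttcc
Cox8b: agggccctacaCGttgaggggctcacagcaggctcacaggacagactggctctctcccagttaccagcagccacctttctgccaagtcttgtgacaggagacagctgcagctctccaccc

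The stretches lie at chr7:30626152-30626271 (Cox6b1, minus strand), chr7:4753095-4753214 (Cox6b2, minus), chr9:79759879-79759998 (Cox7a2, minus), chr7:30184024-30184143 (Cox7a1, plus), chr19:7217617-7217736 (Cox8a, minus) and chr7:140900447-140900566 (Cox8b, minus). Cox6b1 and Cox6b2 hold 8 and 6 CpG, Cox7a2 and Cox7a1 hold 9 and 3, and Cox8a and Cox8b hold 9 and 1. Over the 300 bases from 250 before to 50 after the RefSeq start, the general forms hold 17 to 20 CpG (Cox6b1 17, Cox8a 19, Cox7a2 20) and the restricted forms 2 to 10 (Cox8b 2, Cox7a1 7, Cox6b2 10). Of the 82 nuclear members, 68 had such a 300-base sequence, with a median of 19 CpG, beside a median of 7 over 27025 genes. Both strands were searched for 4 motifs. The NRF1 motif GCGCATGC was in 10 of 68 members (14.7%, beside 2.80% of all genes), the GABPA motif CCGGAAG in 16 (23.5%, beside 9.12%), the YY1 motif AAGATGGC in 9 (13.2%, beside 2.88%) and the CREB motif TGACGTCA in 4 (5.88%, beside 1.88%). NRF1, GABPA and YY1 are transcription factors known to act on nuclear respiratory genes. At least 1 of those 3 motifs was in 30 of 68 members (44.1%, beside 13.7%), and a match describes letters, not binding.

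The 2 genomes contributed nearly equal numbers of UMIs. Mitochondrial members took 2.15%, 2.03%, 2.14% and 2.16% of all UMIs in the 4 libraries, and nuclear members took 2.02%, 2.11%, 2.08% and 2.19%. The log2 ratio of mitochondrial to nuclear UMIs was 0.09, -0.06, 0.04 and -0.02, and the diets overlapped in both shares and in the ratio. These sums over all cells move with how many cells of a class were captured and with the UMIs per cell there. The sums alone do not separate the 2, but both were measured per class. Melanotrope-like cells, for example, numbered 330, 858, 188 and 334, with median UMIs per cell of 19918, 13724, 13676 and 18080. The mitochondrial share is also bounded, since cells over 20% mitochondrial UMIs (13 to 35 per library) were left out.

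Per gene, the mitochondrial genome was far higher than the nuclear one within each complex that combines both. Levels are CPM, a gene's UMIs per 1000000 UMIs of a class in a library, not divided by gene length because only 3' ends were counted. In complex I, the 7 mitochondrial genes averaged 852 CPM and the 37 nuclear genes 198 CPM. In complex III, mt-Cytb stood at 2621 CPM and the 8 nuclear genes averaged 268 CPM. Complex IV had the highest mitochondrial average, 3021 CPM over mt-Co1, mt-Co2 and mt-Co3, beside 279 CPM over its 16 nuclear genes. Complex V averaged 1777 CPM for mt-Atp6 and mt-Atp8 and 398 CPM for its 17 nuclear genes, and complex II, nuclear alone, averaged 69.9 CPM over its 4 genes.

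Nuclear complex I was led by Ndufa4 (477 CPM), Ndufa1 (367 CPM) and Ndufb11 (358 CPM), and complex II by Sdha (106 CPM), which carries the flavin, and Sdhb (97.5 CPM), its iron-sulfur subunit. Complex III was led by Uqcr11 (473 CPM), Uqcrh (447 CPM) and Uqcrb (333 CPM), complex IV by Cox8a (1029 CPM), Cox7c (824 CPM) and Cox6c (757 CPM), and complex V by Atp5e (870 CPM), Atp5l (694 CPM) and Atp5g2 (628 CPM), the last encoding the proton-carrying c subunit of the rotor. Of the mitochondrial genes, mt-Co1 (3742 CPM), mt-Co2 (3123 CPM) and mt-Atp6 (2890 CPM) were highest, and mt-Nd6, the only protein gene on the light strand, was lowest at 33.3 CPM. Ndufb11, Uqcrb, Atp5l and Cox6c overlap an exon of a counted gene on the opposite strand, and whether counting used the strand is not given in the sources used here.

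Classes differed widely in the share of their UMIs that these genes took. The nuclear share ran from 1.34% to 1.44% in macrophage-like cells and 1.42% to 1.67% in somatotrope-like cells up to 2.94% to 3.13% in corticotrope-like and 3.29% to 3.41% in gonadotrope-like cells. Pituicyte-like cells, at 3.51%, 3.46%, 2.94% and 3.45%, overlapped both. The mitochondrial share was highest in pituicyte-like cells (5.84%, 5.19%, 5.36% and 5.25%), the resident glia of the posterior lobe, and in gonadotrope-like cells (3.62%, 3.67%, 3.37% and 3.33%). Pituicyte-like and stem-like cells leaned to the mitochondrial genome, with log2 ratios of 0.58 to 0.87 and 0.39 to 0.55. Endothelial-like cells leaned to the nuclear genome in all 4 libraries (-0.31, -0.27, -0.37 and -0.30), as did T or NK cell-like cells (-0.11, -0.44, -0.21 and -0.23). Hormone transcripts take UMIs away from all other genes in these percentages: the 7 hormone genes held 35.1% to 44.2% of UMIs in somatotrope-like cells and 17.2% to 21.3% in gonadotrope-like cells. Without them in the total, the nuclear share of somatotrope-like cells was 2.42% to 2.57% and that of gonadotrope-like cells 3.97% to 4.32%. No test was made between classes, whose ranges over the 4 libraries are given instead.

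**Figure D1:**
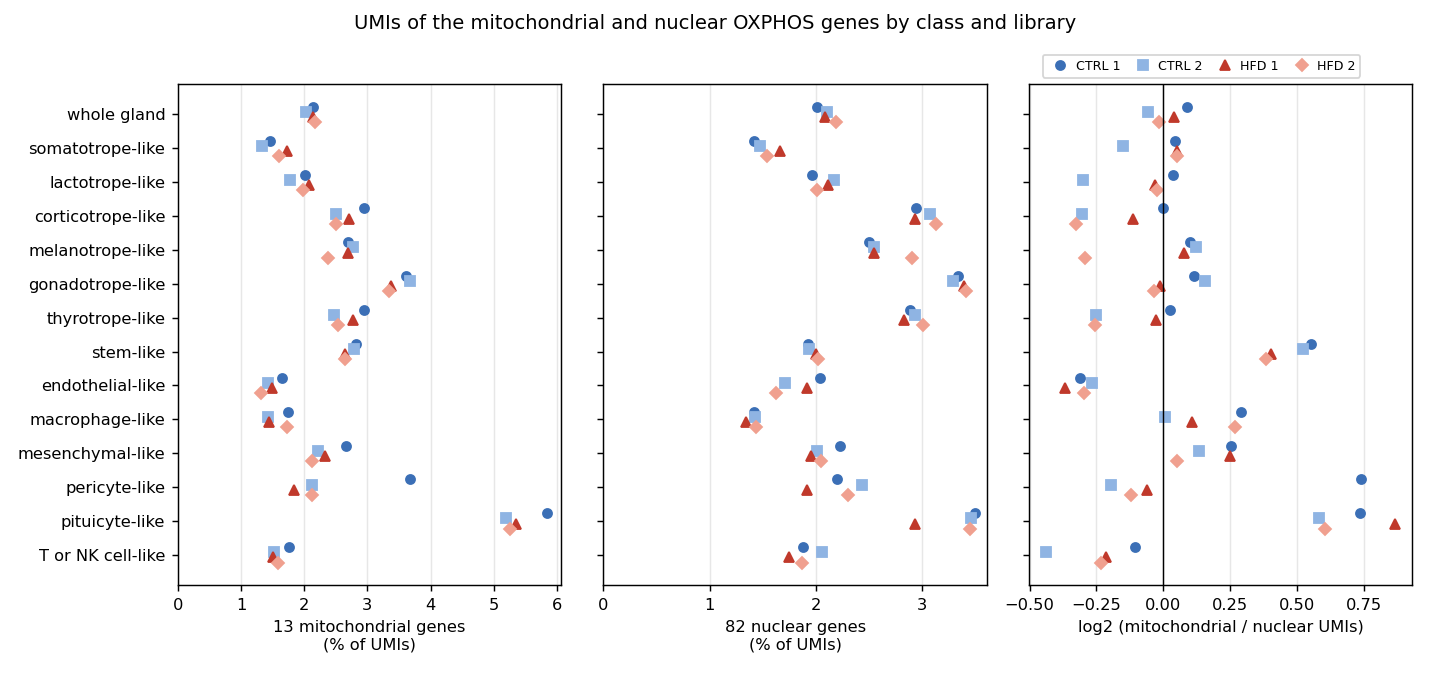
UMIs of the 13 mitochondrial genes (left, percent of all UMIs), of the 82 nuclear genes (middle, percent) and log2 of their ratio (right) in the whole gland and 13 classes, 1 point per library. Pituicyte-like cells lie at 5.19% or more in the left panel, and the HFD libraries lie below the CTRL libraries in the right panel for melanotrope-like, gonadotrope-like and stem-like cells.

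The share of each complex within its genome was compared across classes. Nuclear complex I made up 34.9% of nuclear members' UMIs in the whole gland, complex II 1.33%, complex III 10.2%, complex IV 21.3% and complex V 32.3%. Across the 13 classes, nuclear complex IV ranged from 20.4% in lactotrope-like cells to 25.5% in pituicyte-like cells, and nuclear complex I from 30.5% in T or NK cell-like cells to 36.8% in stem-like cells. Nuclear complex V ran the other way, from 27.5% in pituicyte-like cells to 34.7% in T or NK cell-like cells. Of the mitochondrial genome's UMIs, complex IV took 38.0% in mesenchymal-like cells and 46.0% in stem-like cells, its lowest and highest values. Mitochondrial complex III ranged from 8.93% in T or NK cell-like to 13.9% in mesenchymal-like cells, complex I from 24.9% in pituicyte-like to 32.8% in thyrotrope-like cells, and complex V from 14.9% in thyrotrope-like to 19.9% in T or NK cell-like cells. Complex II took 1.17% of nuclear members' UMIs in thyrotrope-like and 1.66% in macrophage-like cells.

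Of 75 nuclear members with at least 10 CPM in the whole gland, 3 reached in some class at least 2 times their median share of nuclear members' UMIs over the classes. None of the 13 mitochondrial genes did, and the median member's highest class was at 1.3 times its median class for nuclear and 1.22 times for mitochondrial genes. The first was Ndufa1, an X-linked accessory subunit of complex I (X:37187588-37191163, mm10). It stood at 1259, 1214, 1299 and 1277 CPM in gonadotrope-like cells and at 169, 165, 187 and 163 CPM in somatotrope-like cells, so no library of the 2 classes came near the other. Thyrotrope-like cells were between them at 714 ± 53.5 CPM (SD, n = 4 libraries). The others were Ndufa8, an accessory subunit of complex I, at 337, 291, 314 and 257 CPM in endothelial-like cells, and Atp5g1, which took 3.29% of nuclear members' UMIs in somatotrope-like cells beside a median of 1.59%. Ndufs3, a core subunit of complex I, and mt-Co2 had the smallest such ratio of their genomes, the highest class at 1.06 times the median class in either case. This ratio does not cover how far the lowest class fell.

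Atp5g1, Atp5g2 and Atp5g3 encode the same mature c subunit, and their order differed between classes. Somatotrope-like cells had Atp5g1 at 502 ± 20.1, Atp5g2 at 521 ± 18.1 CPM (SD, n = 4 libraries), and Atp5g3 at 164 to 208 CPM. In melanotrope-like cells Atp5g2 led at 868 ± 38.2 CPM, with Atp5g1 at 362 ± 34.6 and Atp5g3 at 329 ± 29.5 CPM. In thyrotrope-like cells Atp5g1 led at 796 ± 59.9 CPM, over Atp5g2 at 593 ± 22.1 CPM. In gonadotrope-like cells the means of Atp5g1 (762 ± 17.3 CPM) and Atp5g2 (756 ± 17.1 CPM) differed by less than their SD over libraries.

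The restricted forms were rare in the whole gland and high in few classes. Ndufa4l2, a relative of Ndufa4 known for its induction in hypoxia (10:127514967-127517154, mm10), stood at 471, 1057, 641 and 1077 CPM in pericyte-like cells. That class held 56.1% of the gene's 1475 UMIs and 0.303% of all UMIs, from 20 to 44 cells per library. Somatotrope markers summed there to 60973, 2227, 36270 and 3615 CPM, highest in CTRL 1 and HFD 1, where Ndufa4l2 was lowest. The part of this in the level of Ndufa4l2 was not tested. Mesenchymal-like cells followed at 18.3, 60.7, 35.2 and 53.3 CPM, and pituicyte-like cells had none. In pericyte-like cells Ndufa4 itself was at 278 ± 79.7 CPM (SD, n = 4 libraries), below Ndufa4l2 in every library, while it exceeded Ndufa4l2 in every other class described. Cox4i2, the hypoxia-responsive form of subunit 4 and outside the symbol patterns, was at 423, 939, 432 and 624 CPM in the same cells, which held 51.4% of its UMIs. Unlike the members, Cox4i2 was not withheld from the clustering, so its level there may not be independent of how the class was formed. Ndufa4l2 overlaps an exon of Shmt2 on the opposite strand.

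Cox6b2, the form of subunit 6b known from testis, was highest in mesenchymal-like cells (153, 173, 98.1 and 206 CPM), which held 42.2% of its 1515 UMIs. Stem-like cells held another 31.8%, at 20.7, 16.7, 24.7 and 29.8 CPM. The general form Cox6b1 exceeded it in all classes and averaged 390 CPM in the whole gland. Cox8b, the muscle form of subunit 8, had 616 UMIs in all, of which 41.9% were in corticotrope-like cells at 10.2, 18.1, 8.71 and 7.49 CPM. Its level was highest in mesenchymal-like cells, at 7.02, 15.7, 25.9 and 15.7 CPM from 5 to 23 UMIs, and the 2 classes overlapped. Cox8a stood at 1029 CPM in the whole gland, Cox6a1 at 148, Cox7a2 at 425 and Cox7a2l at 231 CPM.

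Cox7a1, the muscle form of subunit 7a, was led by pericyte-like cells (33.1, 29.3, 24.0 and 36.0 CPM) and gonadotrope-like cells (28.9, 23.3, 30.7 and 34.7 CPM), and the latter held 32.2% of its 2246 UMIs. It was at 0.817, 1.15, 0.863 and 0.838 CPM in somatotrope-like cells, and macrophage-like cells had none. Cox7b2 had 550 UMIs, 46.0% of them in somatotrope-like and 35.1% in lactotrope-like cells, at 4.27 CPM or less. Cox6a2 (133 UMIs) and Cox8c (18 UMIs) were close to the limit of detection.

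**Figure D2:**
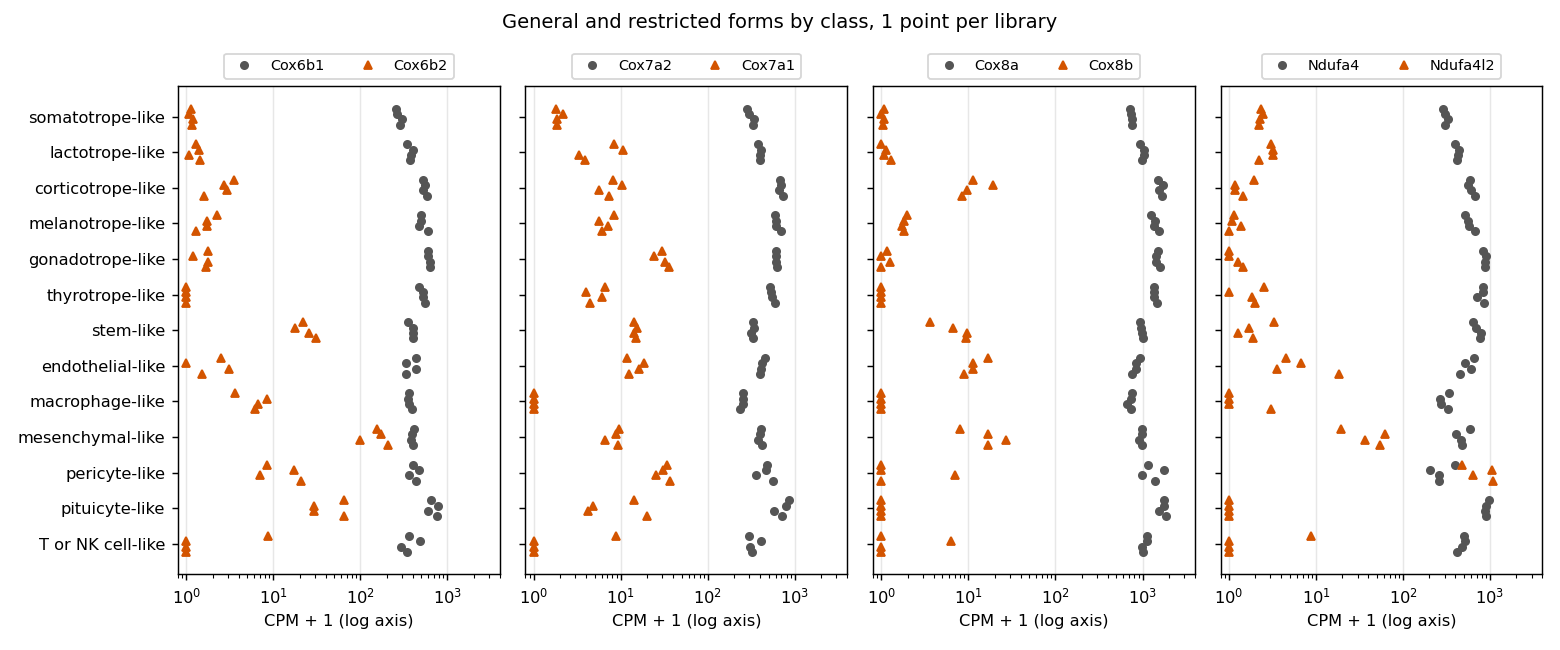
CPM plus 1 on a log axis of 4 general forms (grey circles) and their restricted counterparts (orange triangles) in 13 classes, 1 point per library. The general forms stay between 202 and 1844 CPM in every class and library, and the restricted forms at 64.0 CPM or less except Ndufa4l2 in pericyte-like and Cox6b2 in mesenchymal-like cells.

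The first diet comparison asked whether members differed between HFD and CTRL in the whole gland. None of the 94 members tested passed an adjusted p of 0.05 (edgeR's quasi-likelihood test, Benjamini-Hochberg adjustment over all genes), where 0.0108% of all 18524 genes passed. None passed with DESeq2, where 0.765% of 25222 genes did. At an unadjusted p under 0.05 there was 1 member, beside 9.92% of all genes. That member was Sdhb at 88.2, 90.4, 107 and 104 CPM. It differed by 0.21 on the log2 scale (SE 0.06; adjusted p = 0.44 with edgeR), with both HFD libraries above both CTRL libraries. In CPM, 34 members had both HFD libraries above both CTRL libraries (26.3% of all genes did) and 4 below (16%). The median log2 difference was 0.02 over nuclear members, -0.01 over mitochondrial members and 0.01 over all genes. Of the leading members, mt-Cytb was at 2502, 2489, 2677 and 2815 CPM (log2 difference 0.10, SE 0.07, edgeR adjusted p = 0.66). Cox8a, at 988, 1055, 990 and 1084 CPM, overlapped between diets. The member with the largest fitted difference was Ndufs8 in nuclear complex I (98.2, 102, 110 and 111 CPM, 0.11), Uqcrc2, a core protein of complex III (83.8, 86.9, 93.8 and 99.2 CPM, 0.14), and Atp5d, a subunit of the central stalk of complex V (273, 304, 311 and 322 CPM, 0.10). None of the 3 passed. In nuclear complex IV it was Cox6a2, at 0.512 CPM or less (-0.35).

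No gene of the other lists around the pathway passed either, in a fit where 0.0108% of all 18524 genes did. In the whole gland 0 of 45 assembly factors tested (46 in the list), 0 of 78 mitochondrial ribosome genes, 0 of 12 genes of mitochondrial DNA maintenance and transcription, 0 of 9 regulators of nuclear respiratory genes, 0 of 14 tricarboxylic acid cycle genes, 0 of 17 glycolysis genes and 0 of the 5 subunits and carriers outside the symbol patterns passed edgeR's test. Their medians lay between -0.02 and 0.05 on the log2 scale. At an unadjusted p under 0.05 the counts were 3, 1, 1, 0, 1, 0 and 0, beside 9.92% of all genes. Of 19 immediate-early genes, which dissociation of tissue is known to induce, 11 reached an unadjusted p under 0.05, with a list median of -0.43, and none passed. Among them Nr4a1, a nuclear receptor, was at 275, 225, 122 and 147 CPM (log2 difference -0.93, SE 0.15, edgeR adjusted p = 0.32). Tfam, which packages mitochondrial DNA and acts as a factor in its transcription, was at 28.4, 29.9, 28.9 and 29.9 CPM, and the diets overlapped.

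**Figure D3:**
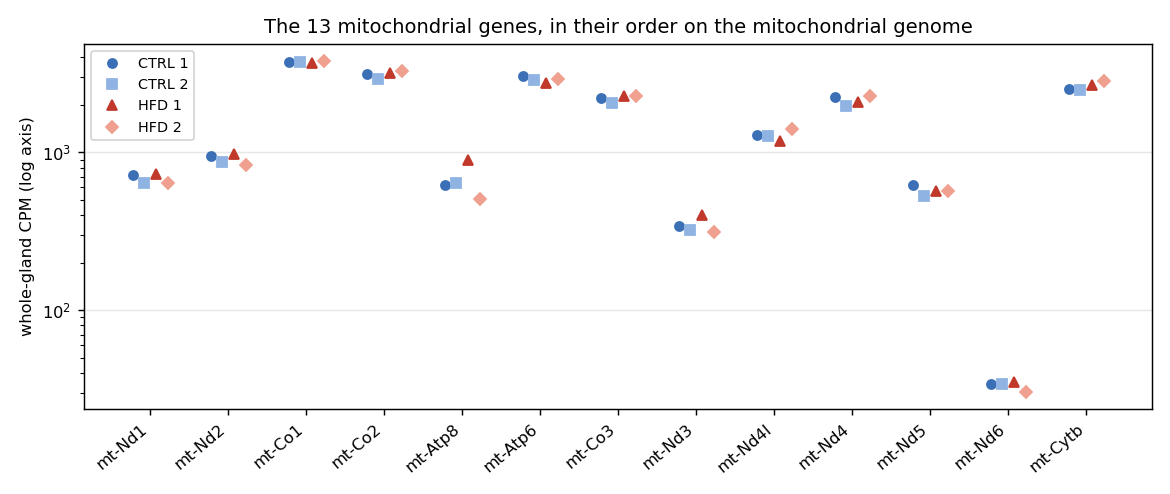
Whole-gland CPM (log axis) of the 13 mitochondrial genes in their order on the mitochondrial genome, 1 point per library. The libraries lie close together for most genes, and mt-Atp8 runs from 503 in HFD 2 to 890 in HFD 1 with both CTRL libraries between.

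The remaining mitochondrial genes ran from mt-Co3 (2198 CPM), mt-Nd4 (2144 CPM) and mt-Nd4l (1283 CPM) down to mt-Nd2 (903 CPM), mt-Nd1 (682 CPM), mt-Atp8 (663 CPM), mt-Nd5 (572 CPM) and mt-Nd3 (346 CPM). All mitochondrial subunits of complex I are named mt-Nd. Pairs of these genes overlap on the same strand (mt-Atp8 with mt-Atp6, mt-Nd4l with mt-Nd4), and mt-Nd5 overlaps mt-Nd6 on opposite strands. Their counts depend on how reads in the overlaps were assigned, which is not given in the sources used here.

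In the mitochondrial genome the widest differences were between the 2 HFD libraries. mt-Atp8, a small subunit of the membrane part of complex V, was at 621, 637, 890 and 503 CPM in the whole gland. The log2 difference between diets was 0.11 (SE 0.24) and -0.34 without HFD 1. It was highest in HFD 1 in 10 of the 10 tested classes and lowest in HFD 2 in 9 of them. mt-Nd3 was at 343, 324, 403 and 314 CPM and was highest in HFD 1 in 7 classes and lowest in HFD 2 in 7. mt-Atp6, which overlaps mt-Atp8, was at 3063, 2857, 2741 and 2901 CPM, lowest in HFD 1. HFD 1 is also the library with the shared barcodes, whose part in this was not tested.

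The second diet comparison was made within each class. Over the 10 tested classes, 2 pairs of member and class passed edgeR's test, 1 in lactotrope-like cells (where 0.9% of all genes passed) and 1 in gonadotrope-like cells (1.44%). In the other 8 classes none did with edgeR, where 0.0551% (somatotrope-like), 0.406% (corticotrope-like), 0.00771% (melanotrope-like), 0.152% (thyrotrope-like), 0.0233% (stem-like) and 0.0499% (endothelial-like) of all genes passed and 0% in macrophage-like and mesenchymal-like cells. DESeq2 called no member in those 8 classes either, where it called from 0.0131% of all genes (macrophage-like) to 1.76% (somatotrope-like). In the same order, members at an unadjusted p under 0.05 numbered 3, 6, 6, 2, 4, 0, 1 and 1, beside 18.5%, 10.1%, 5.31%, 6.36%, 9.36%, 3.36%, 5.78% and 4.65% of all genes.

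Cox7a1 fell in lactotrope-like cells under HFD. It was at 7.29, 9.52, 2.29 and 2.84 CPM, from 120, 223, 30 and 38 UMIs, and both HFD libraries lay below both CTRL libraries. The log2 difference was -1.77 (SE 0.23, n = 2 libraries per diet, edgeR adjusted p = 0.0045), in a class where 0.501% of 13783 genes passed as lower. Both lactotrope-like clusters showed it, with 6.45, 7.80, 2.23 and 2.76 CPM in the larger cluster and 9.54, 14.2, 2.42 and 3.17 CPM in the smaller. At an unadjusted p under 0.05 it was the only 1 of 91 members tested there, beside 10.6% of all genes. The call held without each library in turn and in all 14 alternative settings, with adjusted p from 1.2e-12 to 0.029.

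In somatotrope-like cells the log2 difference of Cox7a1 was -0.36 (SE 0.32). The difference between the diet effects of these 2 classes was -1.40 (SE 0.34, edgeR interaction, adjusted p = 0.11) and did not pass, where 0.979% of all genes did, so the effect is not shown to be particular to lactotrope-like cells. The general form Cox7a2 did not pass in lactotrope-like cells. The summed markers of pituicytes were also lower in the HFD lactotrope-like cells (7.48, 12.0, 2.36 and 2.54 CPM over 7 genes, 1 of them at 0). Of 19 immediate-early genes, 17 had a log2 difference below 0 there, with a list median of -0.30. Of them 1 passed as lower, beside 0.501% of all genes: Fosb (-0.84, SE 0.10, edgeR adjusted p = 0.0028). The part of either in the Cox7a1 difference was not tested. The lactotrope marker sum overlapped between diets.

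Cox6a2, another muscle form of complex IV (7:128205435-128206387, mm10), was too rare to enter the test and is named after its values were seen. Lactotrope-like cells had 8 and 21 of its UMIs in CTRL 1 and CTRL 2 and 0 in both HFD libraries. Pooled over libraries this is 0.727 CPM in CTRL and, at a floor of 3 counts over the HFD group, at least 6.43-fold lower in HFD. The 29 UMIs came from 15 cells, and Cox6a2 overlaps an exon of Itgad on the opposite strand.

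**Figure D4:**
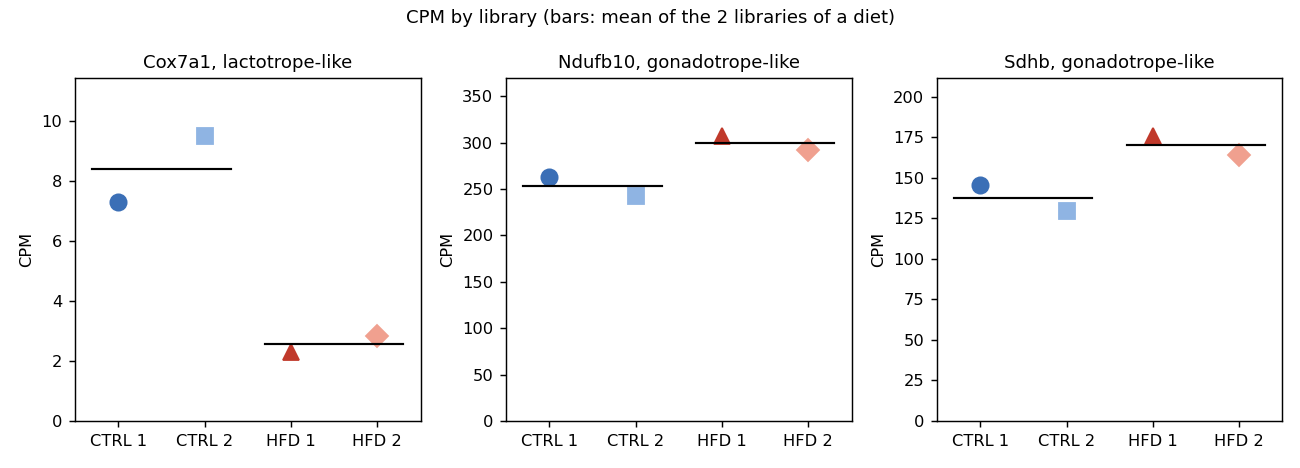
CPM in each library (points) with the mean of the 2 libraries of a diet (bars) for Cox7a1 in lactotrope-like cells and for Ndufb10 and Sdhb in gonadotrope-like cells. In each panel the diets do not overlap: HFD is lower for Cox7a1 and higher for Ndufb10 and Sdhb.

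Ndufb10, a subunit of the membrane arm of complex I (17:24722060-24724478, mm10), rose in gonadotrope-like cells under HFD. It was at 263, 243, 308 and 292 CPM, from 1171 to 2550 UMIs. Both HFD libraries lay above both CTRL libraries. The log2 difference was 0.39 (SE 0.08, n = 2 libraries per diet, edgeR adjusted p = 0.049), where 0.9% of 12556 genes passed as higher. The call sat at the threshold and was lost in 6 of 14 alternatives (adjusted p 0.050 to 0.16), among them leaving out CTRL 1 (0.053), CTRL 2 (0.16) or HFD 1 (0.10).

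No other nuclear member passed in gonadotrope-like cells, and most had fitted differences above 0. Sdhb was at 146, 130, 176 and 164 CPM (log2 difference 0.45, SE 0.09, edgeR adjusted p = 0.051), and Ndufs3 at 179, 169, 197 and 205 CPM (0.35, SE 0.08, adjusted p = 0.060). Ndufv1, which holds the NADH site of complex I, was at 88.6, 79.1, 98.3 and 100.4 CPM (0.39, SE 0.09, adjusted p = 0.076). Of 76 nuclear members tested, 74 had a log2 difference above 0, with a median of 0.20 beside 0.0002 over all genes. The medians were 0.22 in nuclear complex I, 0.20 in II, 0.23 in III, 0.18 in IV and 0.15 in V. At an unadjusted p under 0.05 there were 57 of 89 members (54 nuclear and 3 mitochondrial), beside 21.9% of all genes. In plain CPM, 33 of 76 nuclear members had both HFD libraries above both CTRL libraries (14.1% of all genes did) and 5 below (42% of all genes).

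The mitochondrial members of gonadotrope-like cells lay on both sides. Their median log2 difference was 0.02, with 9 of 13 above 0. mt-Cytb, the core of complex III, was at 3933, 3953, 3966 and 4055 CPM (0.17, SE 0.05, edgeR adjusted p = 0.12), and mt-Atp6 at 4927, 5057, 3991 and 4218 CPM (-0.14, SE 0.05, adjusted p = 0.18). In CPM, 7 of 13 had both HFD libraries below both CTRL libraries (42% of all genes did). The nuclear share of UMIs was accordingly higher in HFD (3.34%, 3.29%, 3.40% and 3.41%), and the log2 ratio of the genomes lower (0.12, 0.16, -0.01 and -0.03). The nuclear share stayed higher and the mitochondrial share lower in HFD when hormone UMIs were left out of the total (nuclear 4.06%, 3.97%, 4.32% and 4.31%; mitochondrial 4.41%, 4.43%, 4.28% and 4.21%).

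Scale matters for these values. The fit divides by library factors that set the middle of all genes near 0, and in plain CPM the median over all genes of gonadotrope-like cells was -0.13, over nuclear members 0.06 and over mitochondrial members -0.12. Several other measures moved with diet in this class. The 7 hormone genes held 17.9%, 17.2%, 21.3% and 20.8% of UMIs, and the 6 lactotrope markers summed to 4628, 3088, 306 and 1306 CPM. The class's own 7 markers were higher in HFD, at 153707, 169035, 214146 and 203941 CPM. Somatotrope markers summed to 24329, 2596, 1430 and 5496 CPM and overlapped between diets. Red blood cell markers were at 1500 CPM in HFD 2 and at 22.8 to 38.7 CPM in the others. The sums of macrophage, mesenchymal and pituicyte markers were lower in HFD, at 8.87 CPM or less. Of 19 immediate-early genes 11 passed as lower and 0 as higher, with a median of -0.94 on the log2 scale, where 0.542% of all genes passed as lower. The part of these measures in the members' differences was not tested.

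Among the lists around the pathway in gonadotrope-like cells, 72 of 78 mitochondrial ribosome genes were above 0, with a median of 0.24. Of them 1 passed, where 0.9% of all genes passed as higher: Mrpl33 at 333, 337, 379 and 389 CPM (log2 difference 0.34, SE 0.07, edgeR adjusted p = 0.048). Of 45 assembly factors 39 were above 0 (median 0.19, none passed by edgeR, 15 at an unadjusted p under 0.05, beside 21.9% of all genes). The tricarboxylic acid cycle had a median of 0.14 and glycolysis 0.12, while genes of mitochondrial DNA maintenance and transcription (-0.08) and regulators of nuclear respiratory genes (-0.01) did not share that side.

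**Figure D5:**
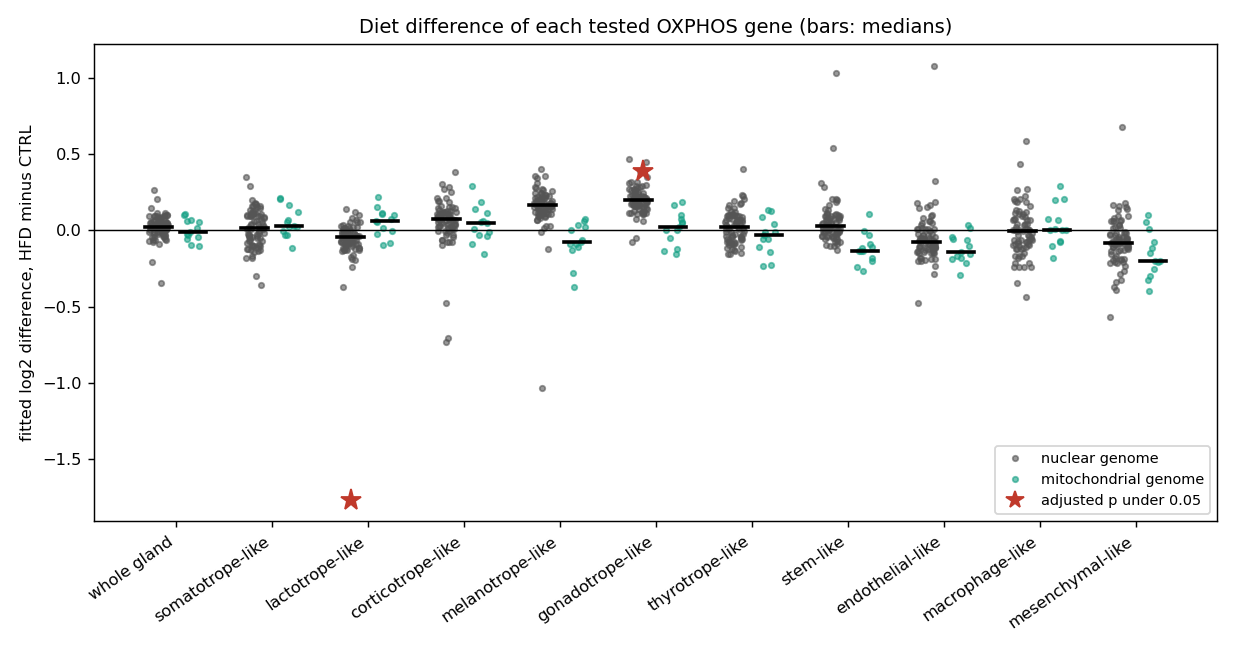
Fitted log2 difference, HFD minus CTRL, of each tested member in the whole gland and 10 classes, with medians as bars and stars for the 2 pairs that passed edgeR's test. Of the nuclear members 74 of 76 lie above 0 in gonadotrope-like and 74 of 77 in melanotrope-like cells, and the lowest point is Cox7a1 in lactotrope-like cells.

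In melanotrope-like cells no member passed. Of 77 nuclear members tested 74 were above 0, with a median of 0.17, and the 13 mitochondrial members had a median of -0.07. In CPM, 25 nuclear members had both HFD libraries above both CTRL libraries (10.2% of all genes did) and 7 mitochondrial members had them below (24.7%). The log2 ratio of the genomes was 0.10, 0.12, 0.08 and -0.29, with HFD 2 alone far from the others. Without HFD 2 the median over all members was 0.02, and without HFD 1 it was 0.29, beside 0.15 with both. Ndufa12, an accessory subunit of complex I, was at 159, 177, 206 and 218 CPM (log2 difference 0.40, SE 0.13, edgeR adjusted p = 0.86). Ppargc1a, a coactivator of nuclear respiratory genes, was at 15.2, 12.7, 29.2 and 19.7 CPM (0.84, SE 0.22, adjusted p = 0.86).

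In stem-like cells the mitochondrial share was 2.82%, 2.79%, 2.65% and 2.64%, and the nuclear share 1.92%, 1.94%, 2.00% and 2.02%, so the diets did not overlap in either. The class joins 2 clusters with median mitochondrial percentages of 2.58 and 3.53 per cell, and the second gave 87, 64, 119 and 55 of its cells beside 190, 288, 165 and 285 from the first. The part of this mix in the shares was not tested. Of 13 mitochondrial genes 12 were below 0 in the fit, with a median of -0.13 and none passing, and the exception was mt-Cytb at 2938, 2961, 3212 and 3225 CPM. In CPM, 33 of 78 nuclear members had both HFD libraries above both CTRL libraries (22.3% of all genes did), and 5 mitochondrial members had them below (17.7%). Cox6b2, whose start region is printed above, was at 20.7, 16.7, 24.7 and 29.8 CPM there (log2 difference 0.54, SE 0.17, edgeR adjusted p = 0.39).

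In somatotrope-like cells the order of the diets depended on the total that the shares were taken of. Their mitochondrial share was 1.46%, 1.33%, 1.73% and 1.60%, and the nuclear share 1.42%, 1.48%, 1.67% and 1.54%, both higher in HFD. Hormone genes held 44.2%, 38.9%, 35.1% and 38.1% of UMIs, lower in HFD. Without hormone UMIs the mitochondrial share was 2.62%, 2.18%, 2.66% and 2.58%, the nuclear share 2.55%, 2.42%, 2.57% and 2.50%, and the diets overlapped in both. In CPM 53 of 78 nuclear members had both HFD libraries above both CTRL libraries, beside 46.6% of all genes, while the fitted median was 0.01. The diets also drew on the 2 somatotrope-like clusters unequally: the first gave 819, 767, 1614 and 2076 cells and the second 611, 1168, 697 and 769. Of 19 immediate-early genes 16 reached an unadjusted p under 0.05 there, beside 18.5% of all genes. Of them 2 passed edgeR's test, both lower, beside 0.0551% of all genes. The list median was -1.40 on the log2 scale. The part of either in the members' differences was not tested.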

How the data were processed

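Pituitary cells of 4 libraries, 2 per diet, were measured. The deposited count matrices hold UMI counts per gene and barcode, made by the authors with Cell Ranger 6.1.2 on mm10 and, per the submitters' processing notes, analysed with Seurat 4.3. Annotation and strand handling were not given in the sources used here.

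Members, gene lists and tests were chosen with earlier results of these data known. Kept barcodes had 500 or more genes and no more than 20% mitochondrial UMIs. The removal of barcodes shared between libraries was chosen after seeing the data. Simulated doublets (2 per cell) were used to remove 0.8% of cells per 1000 cells in a library, 162 to 431 cells. Cells were clustered with scanpy 1.11.5 (2000 variable genes without the members, 30 components, 20 neighbors, Leiden resolution 0.8). Of 27 clusters, 5 with 913 cells stayed unnamed (few markers, few UMIs, genes of 2 cell types together, genes of airway epithelium, or hemoglobin with nuclear RNA), and they count in the whole gland only.

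Counts were summed per class and library and tested with edgeR 4.0.16 (quasi-likelihood, TMM, filterByExpr, R 4.3.3) and, as an alternative, DESeq2 1.42.0. P-values were adjusted by Benjamini-Hochberg over all genes of a fit, with a threshold of 0.05. Between 88 and 91 members passed the filter on low counts in a class, and 94 in the whole gland. The script was tested on simulated data: with 14523 genes in somatotrope-like cells it recovered 82.5% of genes changed by 1 on the log2 scale, and with 6643 genes in macrophage-like cells 37.5%. False calls numbered 10 and 7. The simulated spread of a gene followed from its level alone, so genes that spread more in the real libraries were not imitated. Changes smaller than 1 were not simulated, so these percentages do not say how often differences as small as most members' would be found.

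Named members are those past the threshold, the 3 highest per complex and genome, those whose highest class is at least 10 times the median class, the paired isoforms, the 13 mitochondrial genes and the largest whole-gland difference per complex. Ndufa8, Ndufa12 and Ndufs3, and Sdhb, Ndufv1 and Cox6a2 where described within a class, were chosen after their values were seen. The NRF1 motif was shortened after a longer form had been searched. Gene coordinates are from GENCODE on GRCm38 (mm10). Alternatives changed the test, the filter on low counts, the scaling, the limits on cells, doublets and shared barcodes, or left out each library in turn. The unnamed clusters and the shared-barcode and crossed-number alternatives were set after seeing the data.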

Additional observations from a re-analysis of the deposited data

Results flagged for a closer look

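Several diet differences pointed in opposite directions in different classes, with every HFD library on one side of every CTRL library within each class named. None of these differences between classes was tested.

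The mitochondrial share of UMIs was higher in HFD in somatotrope-like cells by 0.265 percentage points (HFD minus CTRL), and the difference was -0.291 in gonadotrope-like and -0.157 in stem-like cells. Without hormone UMIs the diets overlapped in somatotrope-like cells, and HFD stayed lower in gonadotrope-like and stem-like cells. In plain CPM the median log2 difference over all genes was 0.13 in somatotrope-like, -0.13 in gonadotrope-like and 0.02 in stem-like cells. Both HFD libraries lay above both CTRL libraries for 46.6% of all genes in somatotrope-like cells. They lay below for 42% in gonadotrope-like and 17.7% in stem-like cells. The log2 ratio of mitochondrial to nuclear UMIs was higher in HFD in somatotrope-like cells by 0.10 (0.0081 without CTRL 2) and differed by -0.22 in melanotrope-like (-0.034 without HFD 2), -0.16 in gonadotrope-like and -0.14 in stem-like cells.

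Cox7a1 had a fitted log2 difference of -1.77 in lactotrope-like cells and -0.48 in corticotrope-like cells (7.10, 9.20, 4.62 and 6.34 CPM in CTRL 1, CTRL 2, HFD 1 and HFD 2), against 0.47 in gonadotrope-like cells (28.9, 23.3, 30.7 and 34.7 CPM). Of these 3 values only that of lactotrope-like cells passed edgeR's test.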

How the results depend on the processing

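In the whole gland 0 members passed in every setting run, and Cox7a1 in lactotrope-like cells passed in all 14. The 2 passing pairs of member and class became 4 with DESeq2. Of these 3 were in gonadotrope-like cells (1.12% of all genes passed there) and 1 in lactotrope-like cells (0.65%). Without the filter on low counts there were 27. In gonadotrope-like cells there were 24, all higher, where 6.38% of all genes passed beside 1.44%. Lactotrope-like cells had 2 (2.71% of all genes) and corticotrope-like cells 1 (1.78%). Only the lactotrope-like pair passed without the mitochondrial limit (0.9% of all genes there), with at least 1000 genes per cell (0.93%) and with doublets kept (1.13%). Leaving out 1 or the other HFD library gave mt-Atp8 opposite signs in thyrotrope-like cells. Its log2 difference there was 0.51 without HFD 2 and -0.47 without HFD 1. In gonadotrope-like cells it was 0.56 without HFD 2. Leaving out 1 library moved the whole-gland HFD minus CTRL difference of the mitochondrial share between 0.0089 and 0.125 percentage points, of the nuclear share between 0.023 and 0.129, and of the log2 ratio between -0.078 and 0.066. Without hormone UMIs the mitochondrial difference was 0.0053 beside 0.067.

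The labels do not say that equal replicate numbers share anything. Same-numbered deviations correlated at 0.0057 in the whole gland, and from -0.178 (somatotrope-like) to 0.335 (endothelial-like) over the classes, so pairing is not established. With the replicate number as a block 4 pairs passed (Cox7a1, Ndufb10, Sdhb and Ndufs3), and with crossed numbers 8, 7 of them in gonadotrope-like cells. There 3.94% and 4.89% of all genes passed, beside 1.44% without a block.

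In the whole gland 10 mitochondrial genes, none of which passed, changed the sign of the log2 difference when a library was left out. The lowest and highest values were -0.13 (without CTRL 2) and 0.080 (without CTRL 1) for mt-Nd1, -0.15 (without HFD 1) and 0.051 (without CTRL 1) for mt-Nd2, -0.064 (without HFD 2) and 0.013 (without HFD 1) for mt-Co1, -0.012 (without CTRL 2) and 0.13 (without CTRL 1) for mt-Co2, -0.34 (without HFD 1) and 0.45 (without HFD 2) for mt-Atp8, and -0.022 (without CTRL 2) and 0.15 (without CTRL 1) for mt-Co3. They were -0.11 (without HFD 1) and 0.22 (without HFD 2) for mt-Nd3, -0.15 (without HFD 2) and 0.12 (without HFD 1) for mt-Nd4l, -0.10 (without CTRL 2) and 0.15 (without CTRL 1) for mt-Nd4, and -0.19 (without CTRL 2) and 0.093 (without CTRL 1) for mt-Nd5. The cause was not tested. With 2 libraries per diet, 1 library can decide a call, and small classes limit what can be seen.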
